A study of Mus musculus with 32 samples.

Results

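A set of 5 genes that mark newly formed mesoderm was followed through mouse germ cell induction in culture: the transcription factor genes Hand1 and Hand2 and the receptor genes Pdgfra, Pdgfrb and Kdr. They were 5 of the 18193 genes that the arrays measured, and each was represented by its brightest probe set (the highest mean over all arrays, among probe sets annotated with 1 symbol only). Affymetrix mouse arrays had been run on 32 samples, 2 biological duplicates in each of 16 groups. The labels do not say whether duplicates were separate cultures; the p-values therefore reflect array-to-array spread that may be technical in part.

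Mesoderm forms when epiblast cells pass through the primitive streak under BMP, WNT and Nodal signals, and primordial germ cells (PGCs) are set aside from epiblast beside it. HAND1 and HAND2 are basic helix-loop-helix (bHLH) factors that pair with E proteins, bind E-boxes, and pattern the lateral, extraembryonic and cardiac mesoderm. PDGFRA and PDGFRB are receptor tyrosine kinases for platelet-derived growth factors, the first broad in early mesoderm and the second typical of mural and mesenchymal cells. KDR is the main receptor of VEGFA and marks the mesoderm that gives rise to blood and vessels.

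The 22 new arrays came from male cells of mixed C57BL/6 and 129 background, all with the Blimp1-mVenus and stella-ECFP reporters and Rosa26-rtTA. In the parental clone, epiblast-like cells (EpiLCs) were taken at 36 h of differentiation and then aggregated at 2000 cells per well. Ck-PGCLCs were made from them with BMP4 and BMP8A (500 ng/ml each), EGF (50 ng/ml), SCF (100 ng/ml) plus LIF (1000 U/ml) and were sampled at days 2 and 4. Parental aggregates with doxycycline (1.5 μg/ml) and no cytokines, at day 2, were the negative control. The factor cells carried doxycycline-driven piggyBac transgenes for Avi-Blimp1 (B), 3xFLAG-Prdm14 (P14) and V5-Tfap2c (A). They were BP14A cells (days 2 and 4) and, at day 2 alone, P14, P14A and BP14 cells. All differ from the parental clone in clone as well as in factors. Their sample titles call them TF-PGCLCs and name neither doxycycline nor cytokines. BP14A embryonic stem cells (ESCs) were measured in 2i+LIF medium without doxycycline, and at day 2 with doxycycline after a sort for stella-ECFP. The 10 earlier arrays were of C57BL/6 cells. They covered male ESCs in 2i+LIF, EpiLCs at 48 h and Ck-PGCLCs at day 6 with both reporters. Embryonic day 5.5 epiblast and embryonic day 9.5 stella-EGFP PGCs, of unknown sex, completed them. No sort is named for the PGCLCs, and in such bulk samples fewer cells of a type cannot be told apart from less RNA per cell.

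Levels are log2 values after quantile normalization, and a level under 4.05, the 40th percentile of all values, is called dim. A difference counted as a rise or fall when limma's Benjamini-Hochberg adjusted p was under 0.05 and the change at least 2-fold, in 1 model over all arrays and 15497 tested genes that included all 5 members. Folds against dim levels are imprecise. The germ cell marker list stood at 10.51 and 10.61 in the PGC arrays, against 5.75 and 5.87 in EpiLCs at 36 h. In Ck-PGCLCs it was 7.09 and 7.1 at day 2, 10.15 and 10.25 at day 4 and 11.04 and 11.07 at day 6. It was 4.81 and 4.89 in parental cells, 7.82 in each earlier ESC array, and 9.63 and 9.97 in BP14A cells at day 2. The Gapdh 5′ minus 3′ signal, a sign of RNA quality, was lowest in BP14A day 4 replicate 1 (-4.66) and BP14 replicate 1 (-4.07), followed by replicate 2 of doxycycline-treated BP14A ESCs (-3.13), replicate 1 of EpiLCs at 36 h (-3.03) and the other BP14A day 4 array (-2.99).

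RefSeq promoter windows (GRCm38.p6) were sought for all members but Pdgfrb and were obtained for 3 of them. The 250 bases before the annotated start are shown for Hand2 and Pdgfra, the 2 members whose probe sets disagree below. They are also shown for Kdr, the neighbour of Pdgfra beyond Kit on chromosome 5. Capitals mark 3 kinds of motif, searched on both strands: the E-box CANNTG that bHLH dimers bind, the SMAD motif GGCGCC, and the GATA motif GATAA. No match overlaps another here.
Hand2, chr8:57320733-57320982, plus strand: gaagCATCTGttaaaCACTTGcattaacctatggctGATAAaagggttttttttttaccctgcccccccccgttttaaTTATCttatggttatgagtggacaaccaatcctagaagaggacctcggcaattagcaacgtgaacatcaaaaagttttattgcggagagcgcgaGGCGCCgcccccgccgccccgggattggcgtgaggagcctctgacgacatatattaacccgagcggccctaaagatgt
Pdgfra, chr5:75152001-75152250, plus strand: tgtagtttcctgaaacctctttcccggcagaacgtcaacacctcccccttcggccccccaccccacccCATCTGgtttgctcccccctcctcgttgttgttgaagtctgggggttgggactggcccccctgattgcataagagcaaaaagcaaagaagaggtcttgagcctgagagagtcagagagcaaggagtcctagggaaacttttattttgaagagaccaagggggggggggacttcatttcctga
Kdr, chr5:75978456-75978705, minus strand: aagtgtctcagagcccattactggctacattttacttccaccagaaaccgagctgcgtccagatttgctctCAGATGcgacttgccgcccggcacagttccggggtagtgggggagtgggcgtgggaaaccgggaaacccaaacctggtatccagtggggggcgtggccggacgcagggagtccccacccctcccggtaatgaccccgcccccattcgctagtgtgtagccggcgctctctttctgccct

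The Hand2 window held 2 E-boxes, 2 GATA matches and 1 SMAD match, while the Pdgfra and Kdr windows held 1 E-box each and none of the others. Of 32851 windows of this length in the table, 66.2% held an E-box, 22.6% a GATA match and 9.59% the SMAD match, so an E-box was found in most windows. These matches are descriptions of the letters and not evidence of binding.

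**Figure D1:**
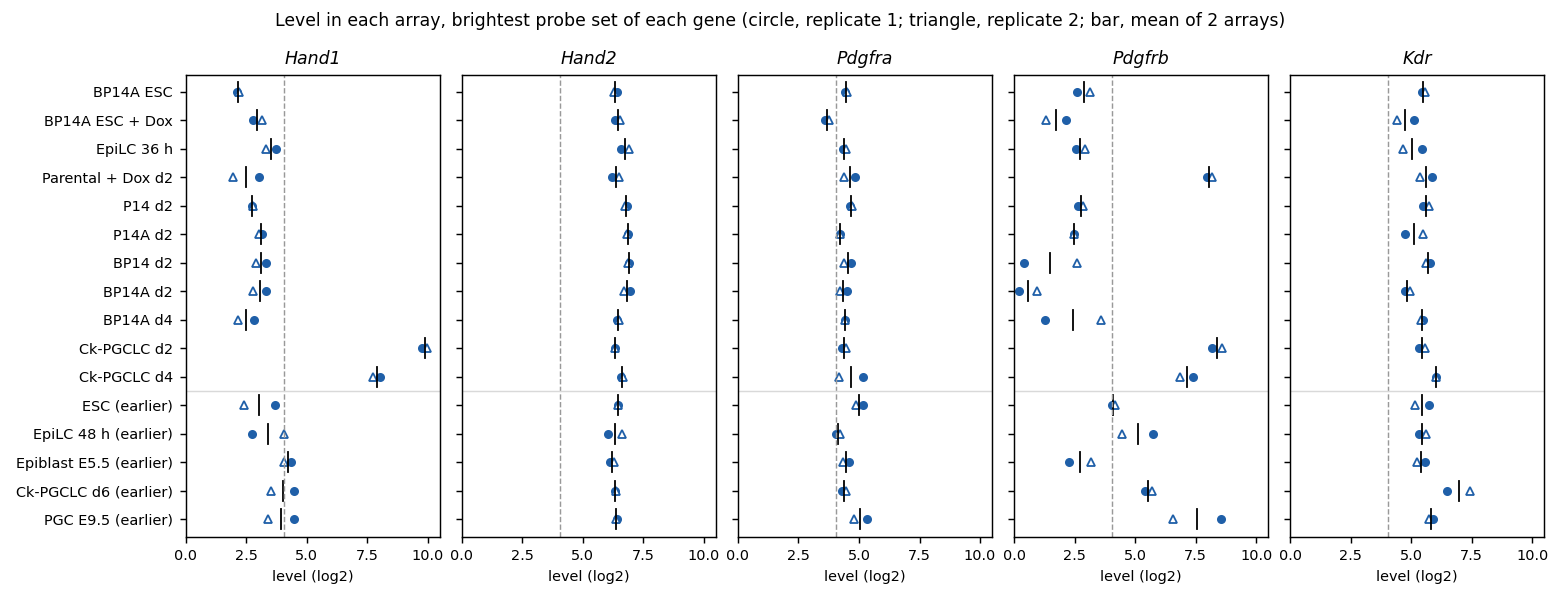
Level of each gene in every array by its brightest probe set (log2, horizontal axis) for the 16 groups; circles are replicate 1, triangles replicate 2, bars the mean of 2 arrays, and the dashed line marks 4.05. Hand1 lies far above the line only in Ck-PGCLCs at days 2 and 4, and Pdgfrb is high in those and in parental cells and PGCs. Kdr is highest at day 6, and the brightest probe sets of Hand2 and Pdgfra vary least.

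Hand1 was high in 2 groups only, the early cytokine groups. It stood at 9.78 and 9.98 in Ck-PGCLCs at day 2 and at 8.04 and 7.73 at day 4, against 3.71 and 3.30 in EpiLCs at 36 h. The 4 cytokine arrays of days 2 and 4 lay above every other array of the series, of which the highest was a PGC array at 4.49. From EpiLCs to day 2 Hand1 rose by 6.38 on the log2 scale (SE 0.47, 83.0-fold, adjusted p = 7.22e-09), and from day 2 to day 4 it fell by 1.99 (SE 0.47, adjusted p = 0.00426), remaining 4.38 above EpiLCs (adjusted p = 7.48e-07). Its second probe set was lower in signal and followed the first over the 16 group means (r = 0.91). It gave 6.57 and 6.64 at day 2 and 5.36 and 3.77 at day 4, the last value dim. By this probe set Ck-PGCLCs at day 2 were called against EpiLCs, parental cells and BP14A cells, and no difference involving day 4 was called. The day 4 results for Hand1 therefore rest on the brightest probe set.

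Doxycycline-treated parental cells without cytokines had dim Hand1, at 3.02 and 1.96. Ck-PGCLCs at day 2 exceeded them by 7.39 (SE 0.47, 168-fold, adjusted p = 5.94e-09), and parental cells did not pass the test against EpiLCs (-1.01, 95% interval -2.01 to -0.02, adjusted p = 0.136). All factor cells were dim as well: 3.32 and 2.80 in BP14A cells at day 2, 2.81 and 2.16 at day 4, and between 2.74 and 3.30 in the other 6 factor arrays. BP14A cells fell short of Ck-PGCLCs by 6.82 at day 2 and by 5.40 at day 4 (adjusted p = 3.39e-09 and 5.12e-07).

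In the earlier arrays Hand1 was dim or just above the dim limit, from 2.39 to 4.49. Ck-PGCLCs at day 6 gave 4.48 and 3.52, PGCs 4.49 and 3.40, and epiblast 4.37 and 4.06, and these ranges overlapped. Day 6 and PGCs differed by 0.06 (95% interval -0.93 to 1.05, adjusted p = 0.971). The new and earlier arrays were not compared by test, and day 4 and day 6 also differ in strain background. Epiblast and ESCs (3.68 and 2.39) differed by 1.18 (adjusted p = 0.0707), which passed the test with a block for replicate number. EpiLCs at 36 h passed over BP14A ESCs (2.12 and 2.19) by 1.35 (adjusted p = 0.0437), with both groups dim and the call lost without any one of the 4 arrays. These groups also differ in clone.

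Hand2 gave 2 different pictures by probe set. The brightest, 1422221_at, was nearly constant, from 6.04 to 6.96 over all 32 arrays, and passed in none of the 20 comparisons at 2-fold. The dimmer 1436041_at was below 4.05 in most groups but stood at 5.33 and 5.40 in Ck-PGCLCs at day 4, 4.30 and 4.10 at day 6, and 5.93 and 4.10 in PGCs. This probe set, and the one for Pdgfra below, were singled out after their values were seen, in a fit with 1 row for each of 27255 tested probe sets. A further probe set of each gene was dim in every group and untested.

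By 1436041_at, Hand2 was no higher at day 2 (2.22 and 2.63) than in EpiLCs (2.20 and 2.73) and rose between day 2 and day 4 by 2.94 (SE 0.74, adjusted p = 0.00796). That call was lost without Ck-PGCLC day 2 replicate 1 (2.74, adjusted p = 0.0699) and without day 4 replicate 2 (2.91, adjusted p = 0.0503). Hand1 fell over the same step. BP14A cells at day 4 (1.17 and 2.43) lay 3.57 below Ck-PGCLCs in log2 terms (adjusted p = 0.00458, and 0.0779 without BP14A day 4 replicate 1, the array with the lowest Gapdh ratio). Day 6 exceeded EpiLCs at 48 h (2.22 and 0.27) by 2.95 (adjusted p = 0.00504, and 0.104 without EpiLC 48 h replicate 2).

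**Figure D2:**
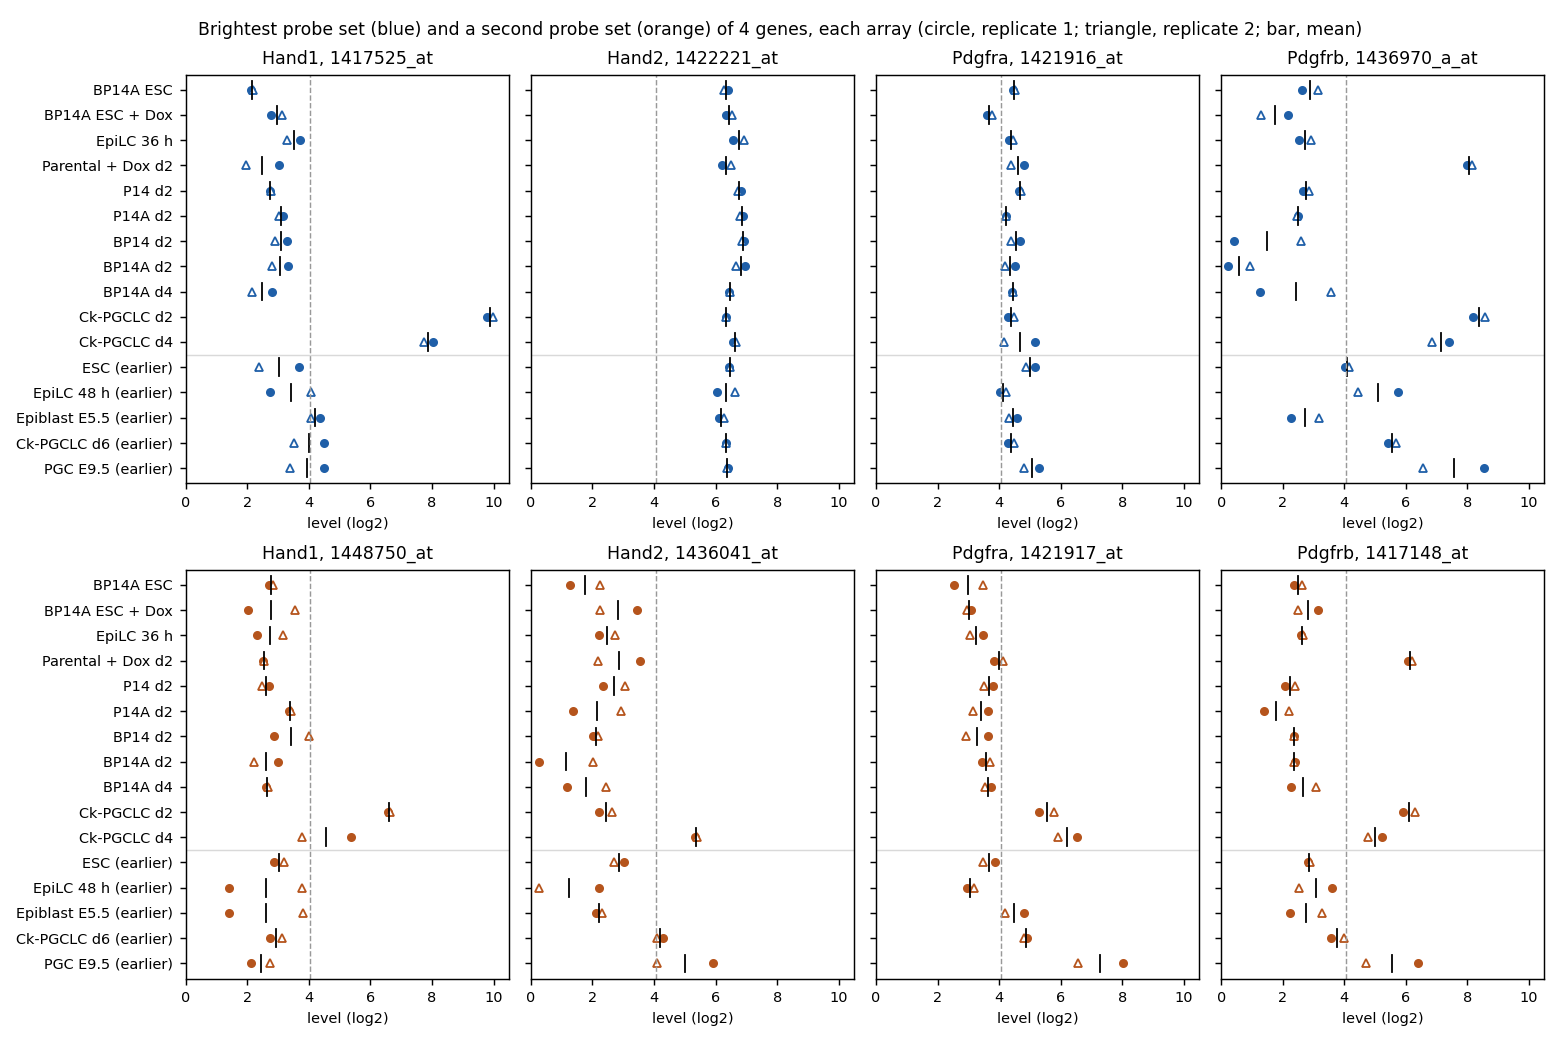
Levels (log2, horizontal axis) by the brightest probe set (blue, top row) and a second probe set (orange, bottom row) of 4 members in every array; circles are replicate 1, triangles replicate 2, bars group means, and the dashed line marks 4.05. Both probe sets of Hand1 and of Pdgfrb show the same groups highest, though the lower Hand1 array of day 4 is dim by the second. For Hand2 and Pdgfra only the second probe set gave calls at 2-fold.

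Pdgfra showed the same split. Its brightest probe set, 1421916_at, ran from 3.61 to 5.31 over all arrays, with no call in the 20 comparisons at 2-fold, while 1421917_at ran from 2.54 to 8.01. By the latter, EpiLCs at 36 h had 3.46 and 3.04, Ck-PGCLCs 5.29 and 5.79 at day 2 and 6.53 and 5.90 at day 4, and the groups at day 2 and day 4 did not overlap with EpiLCs. The rises over EpiLCs were 2.29 at day 2 (SE 0.39, adjusted p = 0.000258) and 2.97 at day 4 (SE 0.39, adjusted p = 1.26e-05). Over the 16 group means 1421917_at and 1421916_at had r = 0.53.

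Parental cells lay near the dim limit by 1421917_at, at 3.83 and 4.14, and Pdgfra was not called there against EpiLCs. Ck-PGCLCs at day 2 exceeded them by 1.55 (SE 0.39, adjusted p = 0.0291), a call lost without any one of the 4 arrays, with values from 1.30 to 1.80. BP14A cells were lower than Ck-PGCLCs by 1.98 at day 2 (3.44 and 3.69, adjusted p = 0.0012) and by 2.59 at day 4 (3.72 and 3.54, adjusted p = 0.000356). All 10 factor arrays were dim, between 2.93 and 3.81.

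The highest Pdgfra values of the series were in PGCs, 8.01 and 6.55 by 1421917_at, against 4.80 and 4.19 in epiblast, 4.92 and 4.80 in Ck-PGCLCs at day 6 and 2.95 and 3.18 in EpiLCs at 48 h. PGCs exceeded epiblast by 2.79 (SE 0.39, adjusted p = 2.64e-05), and day 6 exceeded EpiLCs at 48 h by 1.80 (adjusted p = 0.00178). Day 6 was below PGCs by 2.42 on the log2 scale (-2.42, adjusted p = 0.000378). PDGFRA is also a receptor of the primitive endoderm, and the extraembryonic endoderm list stood at 7.71 and 6.70 in the epiblast arrays, its highest of any group, in the same order as Pdgfra; its part in the epiblast values was not tested.

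Pdgfrb was the one member that was high in parental cells without cytokines. Its levels were 2.54 and 2.93 in EpiLCs at 36 h, 7.97 and 8.16 in parental cells at day 2, 8.19 and 8.58 in Ck-PGCLCs at day 2, and 7.41 and 6.85 at day 4. It rose over EpiLCs by 5.33 in parental cells (SE 0.72, 40.2-fold, adjusted p = 1.52e-05) and by 5.65 in Ck-PGCLCs at day 2 (SE 0.72, 50.3-fold, adjusted p = 6.41e-06). Ck-PGCLCs and parental cells differed by 0.32 at day 2, with a 95% interval from -1.18 to 1.82 (adjusted p = 0.908). For Hand1 the interval of that same difference ran from 6.40 to 8.38.

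Each factor combination had far less Pdgfrb than the parental cells at day 2. The 2 arrays of each gave 0.21 and 0.93 in BP14A, 0.41 and 2.58 in BP14, 2.49 and 2.47 in P14A, and 2.66 and 2.85 in P14 cells, all dim. The differences from parental cells were -7.49, -6.57, -5.58 and -5.31 respectively (SE 0.72 each, adjusted p from 1.58e-07 to 1.39e-05). P14 cells, with Prdm14 as the sole added factor, were 39.6-fold lower than parental cells. Their mean of 2.76 lay near the 2.73 of EpiLCs at 36 h. Clone and factors cannot be told apart in these differences. The 4 comparisons share the parental arrays. The second probe set, 1417148_at, gave 6.06 and 6.19 in parental cells and between 1.38 and 2.40 in the 8 factor arrays of day 2, with differences of -3.74, -3.75, -4.33 and -3.89 in the same order.

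By the brightest probe set BP14A cells were below EpiLCs by 2.16 (-2.16, adjusted p = 0.0389), but both groups were dim, and the call was lost without any one of the 4 arrays. At day 4 BP14A cells had 1.26 and 3.58 and lay 4.71 below Ck-PGCLCs (-4.71, adjusted p = 0.000227). Within BP14, within P14 and within BP14A at both days, the array with the lower Gapdh ratio also had the lower Pdgfrb value. Within P14A the order was the other way. The Gapdh ratios were -1.03 and -0.58 in the day 2 BP14A arrays (0.21 and 0.93) and -4.07 in BP14 replicate 1 (0.41). The part of RNA quality in these results was not tested.

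Pdgfrb was lower at day 4 than at day 2 of the cytokine route by 1.26, which did not pass (-1.26, 95% interval -2.76 to 0.24, adjusted p = 0.256). In the earlier arrays Pdgfrb was highest in PGCs at 8.55 and 6.55, followed by day 6 at 5.42 and 5.68, EpiLCs at 48 h at 5.74 and 4.46, ESCs at 4.03 and 4.16 and epiblast at 2.26 and 3.18. PGCs exceeded epiblast by 4.83 (SE 0.72, adjusted p = 3.35e-05), while day 6 and EpiLCs at 48 h overlapped (0.45, 95% interval -1.05 to 1.95, adjusted p = 0.688). Day 6 was 2.0 below PGCs by the brightest probe set (-2.0, adjusted p = 0.0796), and passed by the second probe set (-1.77, adjusted p = 0.0172). The latter call was lost without PGC replicate 1 (-0.94, adjusted p = 0.328) and without day 6 replicate 1 (-1.57, adjusted p = 0.12).

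**Figure D3:**
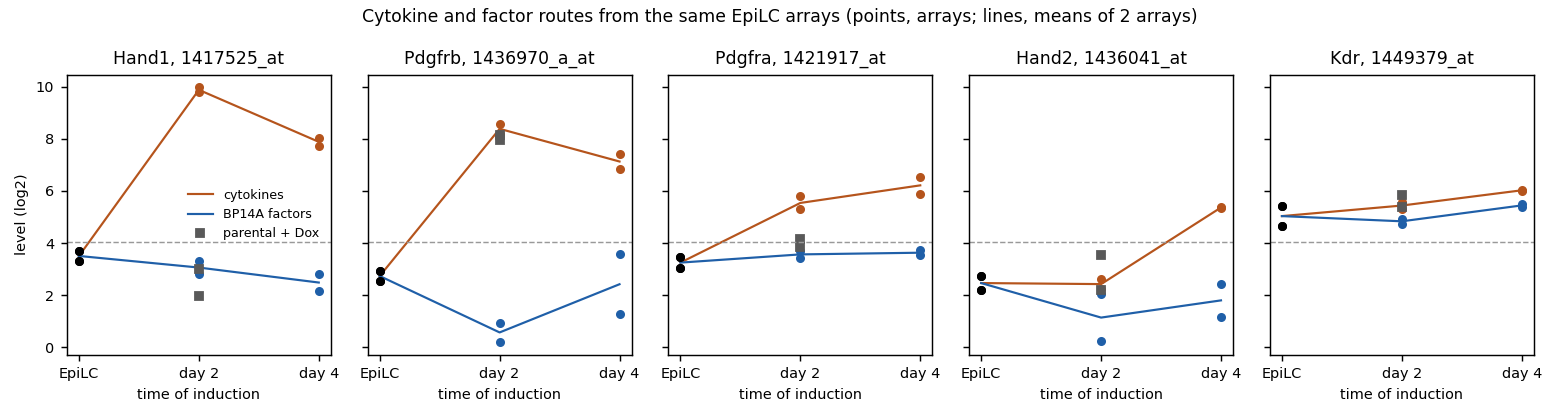
Levels (log2, vertical axis) of the probe set that varied most for each member, from EpiLCs at 36 h to days 2 and 4; black points are the shared EpiLC arrays of the parental clone, orange the cytokine route, blue BP14A cells, grey squares parental cells with doxycycline, and lines join means of 2 arrays. Hand1 peaks at day 2 with cytokines, Hand2 is higher at day 4, and parental cells lie near the cytokine route for Pdgfrb and far below it for Hand1.

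Kdr had a single probe set and moved least among the members that changed. It was above 4.05 in every array, from 4.40 to 7.44, and highest in Ck-PGCLCs at day 6 with 6.47 and 7.44. The next groups were day 4 with 6.01 and 6.04 and PGCs with 5.89 and 5.74, and the PGC values overlapped with those of parental and BP14 cells. Day 6 exceeded EpiLCs at 48 h (5.30 and 5.60) by 1.50 (SE 0.32, 2.84-fold, adjusted p = 0.0012). It exceeded PGCs by 1.14 (SE 0.32, adjusted p = 0.0231), a call lost without PGC replicate 1 (1.22, adjusted p = 0.0758), without PGC replicate 2 (1.06, adjusted p = 0.11) and without day 6 replicate 2 (0.66, adjusted p = 0.338).

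Day 4 Kdr was above EpiLCs at 36 h (5.43 and 4.64) by 0.99 (SE 0.32, adjusted p = 0.0266), just under the 2-fold limit. Without EpiLC replicate 1 the difference was 1.38 and Kdr was called as a rise, and without EpiLC replicate 2 it was 0.60 and missed the p threshold as well. Neither day 2 Ck-PGCLCs (5.31 and 5.57) nor parental cells (5.84 and 5.37) passed against EpiLCs, with differences of 0.40 and 0.57. BP14A cells gave 4.74 and 4.93 at day 2 and 5.5 and 5.39 at day 4, and did not pass against Ck-PGCLCs at either day (-0.60 and -0.58).

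Counted by brightest probe set, 2 of the 5 members rose from EpiLCs to Ck-PGCLCs at day 2, where 8.42% of all tested genes rose, and 2 of 5 were above EpiLCs at day 4, where 9.00% were. From day 2 to day 4, 1 of 5 fell (6.84% of all tested genes). Against parental cells 1 of 5 was higher in Ck-PGCLCs (2.32%), and 1 of 5 was higher in parental cells than in EpiLCs (7.23%). BP14A cells were lower than Ck-PGCLCs for 2 of 5 at day 2 (7.01%) and for 2 of 5 at day 4 (2.74%). Against parental cells 1 of 5 was lower in BP14A (7.25%), BP14 (6.43%), P14A (6.81%) and P14 cells (6.60%), in each case Pdgfrb. Day 6 exceeded EpiLCs at 48 h for 1 of 5 (9.26%), PGCs exceeded epiblast for 1 of 5 (8.90%), and day 6 exceeded PGCs for 1 of 5 (3.90%). BP14A cells were below EpiLCs at 36 h for 1 of 5 (5.36%), and EpiLCs exceeded BP14A ESCs for 1 of 5 (7.17%). The step from day 2 to day 4 differed between the cytokine and BP14A routes for 1 of 5, Pdgfrb (-3.1, adjusted p = 0.045), where 6.92% of tested genes passed in that direction, and that call was lost in 7 of 8 refits without 1 array.

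When any probe set could make the call, 3 members rose at day 2 (10.2% of tested genes by that rule) and 4 were above EpiLCs at day 4 (11.2%). From day 2 to day 4, 1 fell (8.11%) and 1 rose (6.82%). BP14A cells were lower than Ck-PGCLCs for 3 members at day 2 (8.48%) and for 4 at day 4 (3.57%), leaving Kdr as the exception at day 4. Ck-PGCLCs were then higher than parental cells for 2 members (2.59%), day 6 than EpiLCs at 48 h for 3 (12.1%) and PGCs than epiblast for 3 (10.9%). Against PGCs, day 6 was lower for 2 (4.18%) and higher for 1 (4.51%).

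**Figure D4:**
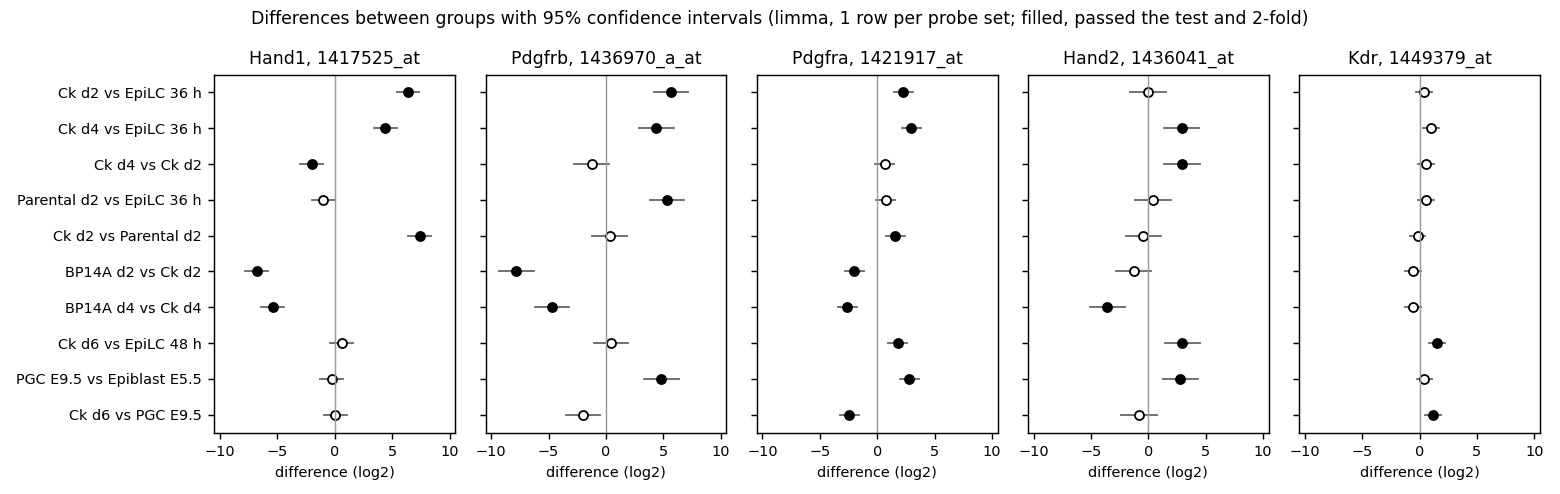
Differences between groups (log2, horizontal axis) with 95% confidence intervals for 1 probe set of each member in 10 comparisons, from the limma fit with 1 row per probe set; filled points passed the test at 2-fold. Cytokine samples of days 2 and 4 lie above EpiLCs and BP14A cells lie below cytokine samples for Hand1, Pdgfrb and Pdgfra, and Kdr passes only at day 6.

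The list of 13 PDGF and VEGF ligands and other receptors did not move as a whole from EpiLCs to day 2: 3 rose and 1 fell, with a median difference of 0.04 against -0.04 over all tested genes. Pdgfa, a ligand of PDGFRA, rose from 6.69 ± 0.04 to 9.78 ± 0.01 (SD, n = 2) by 3.09 (adjusted p = 1.42e-08) and by a further 1.12 at day 4 (adjusted p = 0.00198). It was also higher in BP14A cells, at 10.15 ± 0.37 (3.47 above the EpiLCs of the parental clone, adjusted p = 4.82e-09). In those BP14A cells Pdgfrb and, by 1421917_at, Pdgfra were dim. Pdgfb, Pdgfc and Pdgfd did not pass at day 2.

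Nrp2, a co-receptor for VEGFC and semaphorins, rose from 3.24 ± 0.10 to 8.58 ± 0.05 at day 2 (5.34, adjusted p = 6.92e-11), and exceeded parental cells by 2.48 (adjusted p = 6.66e-06). Vegfc, a ligand of FLT4 and KDR, rose by 2.50 (adjusted p = 0.000186), and Nrp1, a co-receptor for VEGFA, fell by 1.39 (adjusted p = 0.0318). Vegfc was also 7.77 ± 0.55 in parental cells, close to its 7.51 ± 0.20 in Ck-PGCLCs, and BP14A cells had 2.90 less than the latter (-2.90, adjusted p = 3.9e-05). Vegfa, the main ligand of KDR, was 4.10 ± 0.92 in EpiLCs and 4.15 ± 0.19 at day 2. Kit, the gene between Pdgfra and Kdr, was 10.75 ± 0.10 in BP14A cells at day 2, where Pdgfra was dim by 1421917_at.

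Among E proteins, the partners of HAND factors, and Id proteins, which bind E proteins and block bHLH dimers, 3 of 7 rose at day 2 with Hand1, all of them Id genes. Id1, a BMP target, rose by 6.12 (adjusted p = 1.03e-13), Id4 by 4.09 (adjusted p = 3.58e-07) and Id3 by 2.09 (adjusted p = 0.000224). Id1 and Id4 exceeded parental cells by 3.62 and 3.59 (adjusted p = 4.89e-10 and 9.85e-06). From day 2 to day 4 both fell, by 2.85 and 1.62, over the step in which Hand1 fell.

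Of the list of streak and nascent mesoderm genes, 13 of 14 tested rose at day 2, with a median difference of 3.16, led by Lhx1 (7.07) and Evx1 (6.95), homeobox genes of the streak. In parental cells 8 of 14 rose (median 2.36), and the list stood at 6.5 and 6.99 there against 7.43 and 7.66 in Ck-PGCLCs. By day 4, 10 of 14 had fallen, the most being Mixl1 (-6.65) and Fgf8 (-5.67), while Hand1 remained 4.38 above EpiLCs. In BP14A cells at day 2 none of 14 was above the EpiLCs of the parental clone and 1 was below.

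Of 16 lateral and extraembryonic mesoderm genes, 7 rose at day 2, among them the homeobox genes Msx2 (5.60) and Isl1 (5.10), and 5 exceeded parental cells, where Hand1 was also dim. From day 2 to day 4, 6 fell and 2 rose, the collagen gene Col3a1 (2.47) and the matrix gene Postn (1.49). In the paraxial mesoderm list none of 11 rose at day 2 and 3 fell: Tcf15 (-2.24), the Notch ligand gene Dll1 (-1.28) and Uncx (-3.14), the last between dim levels in both groups. Hand1 is also a trophoblast gene, and 6 of 11 trophoblast markers rose at day 2 while 2 fell. Cdx2 (8.0) and Gata3 (6.35) led them, and that list stood at 7.28 and 7.31 at day 2, its highest of any group. Their part in the Hand1 result was not tested.

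Some blood and endothelial genes rose from day 2 to day 4 of the cytokine route. Over this step Hand2 rose only by the dimmer probe set singled out above, a call lost in 2 of 4 refits that each left out an array. By its brightest probe set Hand2 was not called (0.29, adjusted p = 0.269). Kdr was not called over this step either (0.59, adjusted p = 0.236). Of 17 tested, 7 rose over that step, in which 5.68% of all tested genes rose, and Lmo2 fell. The endothelial adhesion gene Pecam1 (3.54, adjusted p = 0.012), which germ cells also express, and Cd34 (3.42, adjusted p = 2.33e-05) led them. Pecam1 was 7.84 and 6.35 at day 4, and also high in the earlier ESCs (7.79 and 8.65). The globin genes Hba-x (4.77 and 4.74) and Hbb-bh1 (5.6 and 5.26) were at day 4 near their levels in EpiLCs at 36 h (4.8 and 4.62, and 4.84 and 5.77). The mean list level was 4.55 and 4.59 at day 2, 5.36 and 5.95 at day 4 and 6.16 and 6.17 at day 6. At day 6, 8 of 17 exceeded EpiLCs at 48 h, led by Gata2 (6.37) and the vascular cadherin gene Cdh5 (4.86), and 2 were lower. The part of such cells in the Kdr and Hand2 results was not tested. Germ cell markers rose over the same step, 11 of 11 from day 2 to day 4.

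In PGCs, the values of Pdgfra, Pdgfrb and Hand2 came with markers of somatic cells. Against epiblast, 8.90% of all tested genes were higher. In the paraxial mesoderm list 5 of 11 were higher and none lower, including Meox1 (3.99) and Foxc2 (3.75). In the lateral mesoderm list 4 of 16 were higher, led by Postn (5.34) and Msx2 (5.25). Of 17 blood and endothelial genes 7 were higher and 1 lower, with the embryonic globin genes Hba-x (7.05) and Hbb-bh1 (4.88) among the former. PGC replicate 1 exceeded replicate 2 in Pdgfra, Pdgfrb and Hand2 alike, and also in the paraxial list (6.09 and 4.87), the lateral list (6.31 and 5.89) and the blood and endothelial list (6.46 and 5.90). The single genes Uncx (7.13 and 3.44), Twist1 (8.45 and 6.13) and Hba-x (12.56 and 11.44) followed the same order. Other genes of these lists ran the other way, with Msx1 at 7.99 and 8.24 and Pecam1, which germ cells also express, at 8.08 and 9.67, as did the germ cell gene Dppa3 at 13.02 and 13.22. The part of somatic cells in the PGC values of these members was not tested.

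Without PGC replicate 1, the difference from epiblast was 3.83 for Pdgfrb and 2.06 for Pdgfra by 1421917_at, both still called. For Hand2 by 1436041_at it was 2.79 with both arrays (adjusted p = 0.00861), and it no longer passed without that replicate (1.87, adjusted p = 0.147) or without epiblast replicate 1 (2.70, adjusted p = 0.0535).

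**Figure D5:**
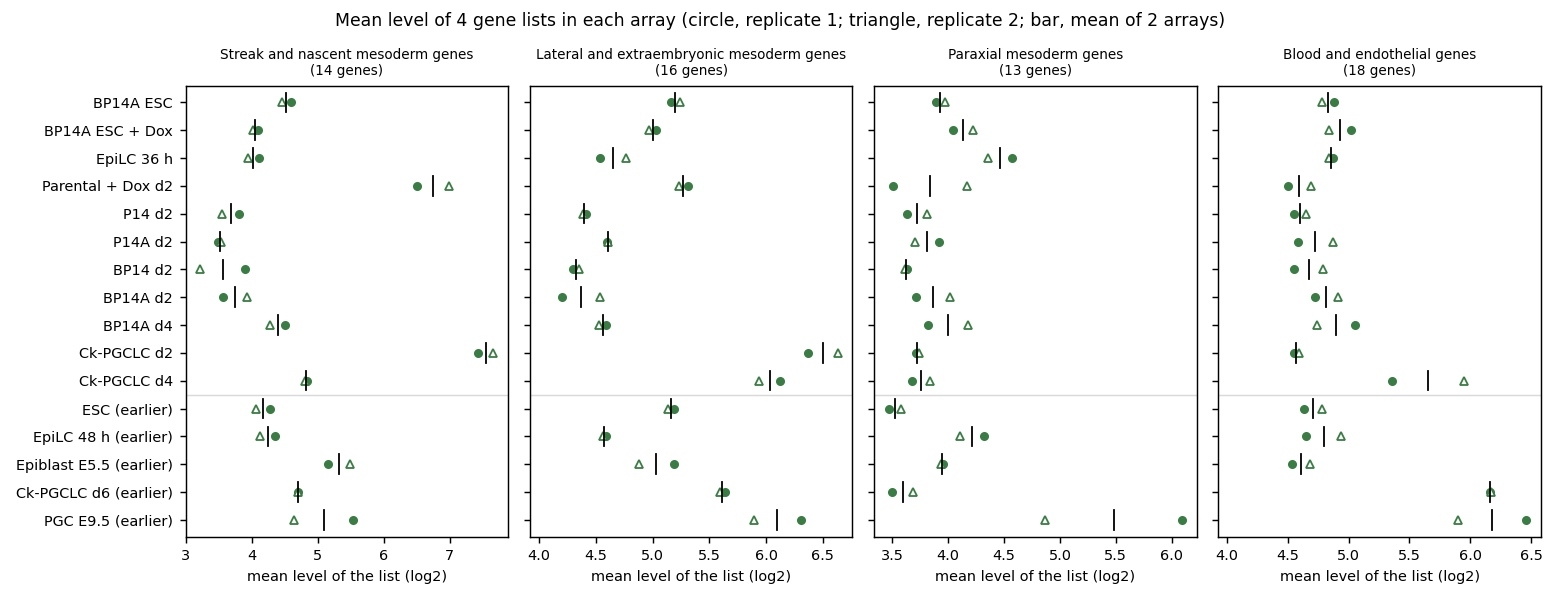
Mean level (log2, horizontal axis) of 4 gene lists in every array, without the 5 members; circles are replicate 1, triangles replicate 2 and bars means of 2 arrays, and each panel has its own scale. The streak list is high in Ck-PGCLCs at day 2 and in parental cells, and PGC replicate 1 is the highest array for paraxial and for blood and endothelial genes.

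Over the 16 group means, which share arrays and their processing, the genes most like Hand1 were Msx1 (r = 0.883), Bmper (0.882), Rftn1 (0.835), Fat4 (0.826) and Cpne8 (0.824), all highest in Ck-PGCLCs at day 2. Those most like Pdgfrb were Brip1os (0.955), Zfp963 (0.923), Sgce (0.907), Itm2c (0.907) and Nudt7 (0.905), with Brip1os and Nudt7 highest in parental cells. For Kdr they were Tax1bp1 (0.860), Gimap4 (0.846), Lsp1 (0.844), Elfn1 (0.833) and Rab18 (0.821), all highest at day 6. The nearest genes to the brightest probe sets without a 2-fold call were Cep43 for Hand2 (0.928) and Alg11 for Pdgfra (0.829), whose likeness rests on small differences. Among the probe sets that varied most for each member, Hand2 and Pdgfra were most alike (r = 0.80), followed by Pdgfra and Pdgfrb (0.72), while Hand1 and Kdr had r = 0.21.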

How the data were processed

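The authors deposited log2 values, 1 for each probe set and array, from 0 to 14.59. Their range gave the scale; which software summarised and normalized them is not given in the sources used here. Per the labels, each sample was cDNA of some 20000 cells that had been amplified by PCR, and labelling followed the Affymetrix protocol. Amplification and 3′ labelling can weaken probe sets far from the transcript's end. The number of arrays limits the precision.

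Deposited array medians ran from 4.62 to 4.78, so the arrays were quantile normalized. After removal of 64 control probe sets, 34945 of the 45101 probe sets in the table had 1 symbol in GEO's platform annotation, 932 several and 9160 none. A gene took its brightest probe set, and entered the test where any group mean was log2 4.05 or more. One limma model (version 3.58.1, R 4.3.3 and data.table version 1.17.8) held 32 arrays and 16 group means with 16 residual degrees of freedom, and was tested on simulated data. No replicate pair had identical values. In the earlier arrays all 10 correlations between same-numbered deviations exceeded 0.1 (0.243 to 0.522), so replicate number paired those samples by the data. The members and gene lists were chosen with earlier results of these data known. Genes were named by rule: all members, the 5 genes most like each, the 2 largest rises and falls among called members of each list in 3 comparisons, any PDGF or VEGF list gene, and list genes high where a member was high; Kit, Cdh5, Gata2, Twist1, Dppa3 and the Id genes beyond this rule were chosen after their values were seen. Genes such as T, Hcn4 and Nanos3 were not analysed here, and Hes7, Ripply2, Sox18 and Tbx5 were too dim to test. Alternatives covered normalization, filters, probe sets, variance model, thresholds, a replicate block and fewer arrays.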

Additional observations from a re-analysis of the deposited data

Results flagged for a closer look

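The step of Pdgfrb from day 2 to day 4 differed between the routes by the interaction term: it was -1.26 with cytokines and 1.85 in BP14A cells, a difference of -3.1 on the log2 scale (SE 1.01, adjusted p = 0.045 from limma over all tested genes, of which 6.92% passed in this direction). Neither step passed the test by itself. The BP14A levels were dim, at 0.21 and 0.93 on day 2 and 1.26 and 3.58 on day 4, and the call was lost in 7 of the 8 refits that left out 1 array, with values from -4.27 to -1.94. It was kept only without BP14A day 4 replicate 1, the array with the lowest Gapdh 5′ minus 3′ signal.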

How the results depend on the processing

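No called member difference changed sign in any alternative. The counts of members called held to within 1.5 times the main count except as follows. With arrays centred on their medians, or with trend and robust options, EpiLCs at 36 h against BP14A ESCs gave 0. With the mean of all probe sets, BP14A day 2 against EpiLCs, EpiLCs against BP14A ESCs and the difference of steps gave 0, EpiLCs at 48 h against ESCs 1 (Pdgfra, lower), day 6 against EpiLCs at 48 h 3, PGCs against epiblast 3, and day 6 against PGCs 2. With no filter, the first 3 of these again gave 0. At an adjusted p under 0.01 those 3 and day 6 against PGCs gave 0. With no fold limit, BP14 and P14A against parental cells gave 2 each, and BP14A ESCs with against without doxycycline and EpiLCs at 48 h against ESCs gave 1 each. On only the new or only the earlier arrays, parental cells against EpiLCs and the difference of steps gave 2 and day 6 against PGCs 0. On only the arrays of the groups compared, day 4 against day 2 gave 2 (Hand1 and Pdgfrb lower), BP14A against Ck-PGCLCs at day 4 gave 1, and day 6 against EpiLCs at 48 h, day 6 against PGCs and the difference of steps gave 0. In those small fits, where few arrays estimate the spread, 13 member differences no longer passed. When any probe set could call a gene, a choice made after seeing the data, counts were 2 for day 4 against day 2, 4 for day 4 against EpiLCs, 2 for day 2 against parental cells, 4 for BP14A against Ck-PGCLCs at day 4, 3 for day 6 against EpiLCs at 48 h, 3 for PGCs against epiblast, 3 for day 6 against PGCs, and 0 for EpiLCs against BP14A ESCs and the difference of steps. The causes of these changes were not tested. With 1 array left out, counts ran from 0 to 0 for BP14A day 2 against EpiLCs and for EpiLCs against BP14A ESCs, and from 0 to 1 for the difference of steps, day 6 against PGCs, epiblast against ESCs (1 without ESC replicate 1) and EpiLCs at 48 h against ESCs (1 without ESC replicate 2). Every call of Hand1 and Pdgfrb against Ck-PGCLCs, parental cells or, for rises, EpiLCs at 36 h held without each array in turn by the brightest probe set. With the replicate block, epiblast against ESCs gave 1 (Hand1) and no other call changed. In the new arrays 25 of 55 same-number correlations exceeded 0.1 (-0.219 to 0.476), which did not settle whether replicate numbers pair those samples. The share of higher genes among called genes at day 2 against EpiLCs was 58.2% after quantile normalization and 69.5% on the deposited values, and 65.3% and 77.4% for BP14A day 4 against day 2. Signal limits the dim members: differences between levels under 4.05 have little precision.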
